A study of Rattus norvegicus with 4 samples.

Results

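The 5 genes described here encode the core of the cell-associated plasminogen activation system and the starter of blood coagulation: Plau (urokinase), Plat (tissue-type plasminogen activator), Plaur (the urokinase receptor), Serpine2 (protease nexin-1) and F3 (tissue factor). They were taken as the rows of the deposited count table that carry these symbols, and each symbol matched 1 row, giving 5 of 32883 genes. In cells treated with ginsenoside Rk1, transcripts of Plau and F3 were called lower by edgeR than in untreated cells, by 1.37-fold and 1.30-fold. Those of Plat, Plaur and Serpine2 did not pass the test. Neither call held with DESeq2 or in every run with 1 library left out. Of all tested genes 22.0% were called, and the share among these 5 genes cannot be set apart from that background. Plat passed, as higher with Rk1, when reads listed under a second row described as tissue-type plasminogen activator-like were added to it. That sum was chosen after the counts were seen, and nearly all the added reads came from Rk1 replicate 2. The call of the sum was lost in some alternative fits.

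The samples were cells of the line HSC-T6, derived from rat hepatic stellate cells and immortalised, and 4 libraries of their total RNA were sequenced. There were 2 libraries of cells treated with GRK1, which the series title gives as ginsenoside Rk1 (a plant saponin found in heated ginseng), and 2 of cells with no treatment. Genotype is the same line throughout, and the labels name no dose, duration, vehicle or separate cultures, so the p-values reflect no more than library-to-library spread, possibly technical. A cell line of this kind holds no hepatocytes, endothelium or platelets as partners in coagulation, and RNA levels say nothing of secreted enzyme activity.

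Plasminogen is a circulating proenzyme that the serine proteases urokinase and tissue-type plasminogen activator cleave to plasmin, which dissolves fibrin and degrades matrix proteins. Urokinase acts mostly at the cell surface, held by its receptor, a lipid-anchored protein that also contacts integrins and vitronectin, and serpins such as protease nexin-1 trap the activators and thrombin in covalent complexes. Tissue factor is a membrane protein that binds factor VII and so starts thrombin generation. Stellate cells that turn into myofibroblasts are known sources of plasminogen activators and their inhibitors, and this system affects how scar matrix in liver is removed.

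RefSeq promoter windows on assembly GRCr8 matched 3 of the 5 genes, and the 250 bases before the transcript start are shown for these. No window was available for Plat or for F3, which was called lower as Plau was. Capitals mark matches, on either strand and with overlapping matches kept, to any of 4 short motifs. The GC box bound by the factor SP1 was searched as GGGCGG. The site of the AP-1 factors, which respond to growth signals, was searched as TGANTCA. The site of the TEAD factors, partners of the coactivator YAP, was searched as GGAATG. The box bound by the TATA-binding protein was searched as TATAAA.
Plau, chr15:3511988-3512237, minus strand: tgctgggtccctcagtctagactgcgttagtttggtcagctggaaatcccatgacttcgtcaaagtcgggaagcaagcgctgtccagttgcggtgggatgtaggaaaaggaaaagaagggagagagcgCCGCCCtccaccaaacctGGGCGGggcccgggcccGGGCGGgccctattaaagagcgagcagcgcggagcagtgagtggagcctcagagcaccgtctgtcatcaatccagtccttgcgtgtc
Plaur, chr1:89181113-89181362, plus strand: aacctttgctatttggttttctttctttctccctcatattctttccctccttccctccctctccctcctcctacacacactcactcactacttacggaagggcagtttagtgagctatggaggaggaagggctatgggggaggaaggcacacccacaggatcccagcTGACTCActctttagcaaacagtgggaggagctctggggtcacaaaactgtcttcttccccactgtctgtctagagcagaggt
Serpine2, chr9:88637203-88637452, minus strand: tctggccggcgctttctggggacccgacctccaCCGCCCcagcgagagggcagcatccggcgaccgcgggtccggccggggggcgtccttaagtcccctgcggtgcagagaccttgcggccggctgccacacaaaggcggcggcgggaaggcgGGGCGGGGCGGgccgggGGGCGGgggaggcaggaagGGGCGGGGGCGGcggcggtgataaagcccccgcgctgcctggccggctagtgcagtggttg
The Plau window held 3 GC boxes and the Serpine2 window 6, some of which overlap, while the Plaur window held none and had 1 AP-1 match, 83 bases before the start. Of 33469 windows of the same length, 30.5% held a GC box, 6.34% an AP-1 match, 12.1% a TEAD match and 12.9% a TATA match. Neither of the last 2 motifs matched in these 3 windows. The share of G and C was 60.0% for Plau, 51.2% for Plaur and 76.8% for Serpine2, the last above 97.6% of windows. These matches describe letters, not binding, and their part in the results was not tested.

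Library totals lay between 18008586 and 20430930 counts, 12316 genes were abundant enough to be tested, and 3 counts corresponded to 0.148 to 0.167 CPM, the count scaled to library size. Mitochondrial genes held 3.60% and 3.68% of counts with Rk1 and 3.11% and 3.24% untreated, and their part in the results was not tested. Of 10 markers of stellate cells or myofibroblasts 7 were tested. Des, Vim, Col1a1, Col3a1 and Pdgfrb were detected in every library, and Lrat and Reln had no count. Acta2 and Gfap were low, with 16 and 6 counts of Acta2 and 22 and 12 of Gfap in the Rk1 libraries, against 73 and 56 of Acta2 and 80 and 55 of Gfap in the untreated libraries, and both were called lower by edgeR (adjusted p = 0.00474 and 0.00644). These 10 summed to 11800 to 11900 CPM with Rk1 and 17700 to 18700 CPM untreated, mostly Col1a1 and Col3a1, with 4 genes called lower and 0 higher. Summed levels of the other cell types' markers were 49.0 to 49.9 CPM with Rk1 and 52.3 to 53.0 CPM untreated for 6 hepatocyte genes, nearly all from Tf, with Alb at 0 to 2 counts and 2 genes at 0. For the 5 of 6 endothelial genes that matched they were 0.668 to 0.987 and 0.689 to 0.714 CPM, with 3 at 0. For 6 leukocyte genes they were 55.2 to 56.0 and 43.6 to 46.3 CPM, nearly all from Cd14, which was called higher, with 2 at 0. For 4 cholangiocyte genes they were 2.58 to 2.78 and 7.29 to 9.06 CPM, mostly from Sox9, which was called lower, with none at 0 in all libraries. The part of these markers in the results was not tested. In bulk RNA, fewer cells that express a gene and less RNA per cell cannot be told apart.

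Rk1-treated cells were compared with untreated cells, the single contrast the labels offer. All 5 genes were tested with edgeR's quasi-likelihood F-test at a Benjamini-Hochberg adjusted p under 0.05 over all tested genes, and 2 were called, both lower, which is 40% of the 5. Over all tested genes 22.0% were called, 11.5% higher and 10.5% lower. With so few genes the share of 40% cannot be set apart from this background. The median log2 fold change (Rk1 over untreated) was -0.18 over the 5 genes and 0.0011 over all tested genes. None of the 5 reached a 2-fold difference.

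Plau, the urokinase gene, lies on chromosome 15 at 3644769 to 3650819 on the minus strand in Rnor_6.0 (ENSRNOG00000010516). It had 133 and 116 counts in the Rk1 libraries and 197 and 167 counts in the untreated libraries, which is 7.40 and 6.36 CPM against 9.70 and 9.17 CPM. Both Rk1 libraries were below both untreated libraries. The groups did not overlap in either direction for 63.0% of tested genes (30.9% with Rk1 below), as for 3 of the 5 genes here, so this alone says little. The means were 6.88 ± 0.73 CPM with Rk1 and 9.44 ± 0.37 CPM untreated (SD, n = 2 each). Plau fell by 0.46 ± 0.13 on the log2 scale (SE, edgeR adjusted p = 0.0439), a fold change larger in size than that of 87.8% of tested genes but close to the threshold. It was not called by DESeq2 (adjusted p = 0.225), without any filter on low counts (0.0586), or when any 1 library was left out (0.0537 to 0.176), while its sign stayed negative throughout.

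F3, the tissue factor gene, lies on chromosome 2 at 225310624 to 225322272 on the plus strand (ENSRNOG00000011800). The Rk1 libraries had 398 and 394 counts and the untreated libraries 615 and 484, or 22.1 and 21.6 CPM against 30.3 and 26.6 CPM. The groups did not overlap, and the Rk1 libraries lay closer together than the untreated ones. F3 averaged 21.9 ± 0.38 CPM with Rk1 and 28.4 ± 2.6 CPM untreated (SD, n = 2 each). It fell by 0.38 ± 0.08 on the log2 scale (edgeR adjusted p = 0.0186). The call was lost by DESeq2 (adjusted p = 0.0549), without untreated replicate 1 (0.0827), without Rk1 replicate 1 (0.0566) and without Rk1 replicate 2 (0.0678), and held without untreated replicate 2 (0.00829).

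Plaur, which encodes the receptor that concentrates urokinase on the cell surface, lies on chromosome 1 at 81328183 to 81344708 on the plus strand (ENSRNOG00000037931). Its counts were 362 and 321 with Rk1 and 489 and 336 untreated, or 20.1 and 17.6 CPM against 24.1 and 18.5 CPM. The groups overlapped, since Rk1 replicate 1 lay above untreated replicate 2. Plaur averaged 18.9 ± 1.8 CPM with Rk1 and 21.3 ± 4.0 CPM untreated (SD, n = 2 each), a log2 fold change of -0.18 ± 0.14 that did not pass (edgeR adjusted p = 0.401). The 2 untreated libraries differed by 1.30-fold (95% exact conditional interval 1.133 to 1.503, counting error only), a wider gap than for 96.0% of tested genes. Without untreated replicate 1 the log2 fold change was 0.03 and without untreated replicate 2 it was -0.36. The sign of the estimate thus changed with 1 untreated library, and these libraries do not settle it.

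Serpine2 encodes protease nexin-1, a cell-associated serpin that inhibits thrombin, urokinase and tissue-type plasminogen activator. It lies on chromosome 9 at 85560863 to 85626094 on the minus strand (ENSRNOG00000015461). The Rk1 libraries had 5352 and 5144 counts and the untreated libraries 5616 and 5006, or 298 and 282 CPM against 276 and 275 CPM. Rk1 lay above untreated in both libraries, as it did for 32.1% of tested genes, but by a small margin. Means were 290 ± 11 CPM with Rk1 and 276 ± 1.1 CPM untreated (SD, n = 2 each). The log2 fold change of 0.07 ± 0.04 did not pass (edgeR adjusted p = 0.291), and it stayed between 0.03 and 0.11 in every alternative run. A p above the threshold does not show that the levels were alike, but the largest of these values is 1.08-fold.

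Plat encodes tissue-type plasminogen activator, the activator that works best when bound to fibrin. It lies on chromosome 16 at 74098260 to 74122889 on the minus strand (ENSRNOG00000019018). It had 1856 and 1352 counts with Rk1 and 1509 and 1210 counts untreated, or 103 and 74.1 CPM against 74.3 and 66.5 CPM. Rk1 replicate 1 stood above the other 3 libraries, and Rk1 replicate 2 lay just under untreated replicate 1. The Rk1 libraries differed by 1.39-fold (95% exact conditional interval 1.30 to 1.49, counting error only), a wider gap than for 97.9% of tested genes. Plat averaged 88.7 ± 20.6 CPM with Rk1 and 70.4 ± 5.5 CPM untreated (SD, n = 2 each), and its log2 fold change of 0.33 ± 0.14 did not pass (edgeR adjusted p = 0.134). Without Rk1 replicate 2 it passed at 0.55 (adjusted p = 0.00286), and without Rk1 replicate 1 it was 0.07 (adjusted p = 0.580).

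A second row of the table, LOC100910418 (ENSRNOG00000060898), is described there as tissue-type plasminogen activator-like. It lies on chromosome 16 at 73755539 to 73763312 on the plus strand, 334948 bases from Plat, and its level was too low in most libraries for it to be tested. It had 3 and 196 counts in the Rk1 libraries and 4 and 4 counts in the untreated libraries. Rk1 replicate 2, the library with the lower Plat count of its group, therefore held nearly all reads of this row, 12.7% of its summed Plat and LOC100910418 reads, against 0.161% in Rk1 replicate 1 and 0.264% and 0.329% in the untreated libraries. Related rows can divide reads, so the count of Plat in that library is uncertain.

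With both rows summed, a choice made after the counts were seen, the level was 103 and 84.9 CPM with Rk1 and 74.5 and 66.7 CPM untreated. The groups then no longer overlapped. The summed gene was higher by 0.41 ± 0.10 on the log2 scale (1.33-fold, edgeR adjusted p = 0.0217). It was called as well by DESeq2 (adjusted p = 0.00349) and by limma-voom (0.0237), but not with robust dispersions (0.0768), without Rk1 replicate 1 (0.0595) or without untreated replicate 2 (0.0748).

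**Figure D1:**
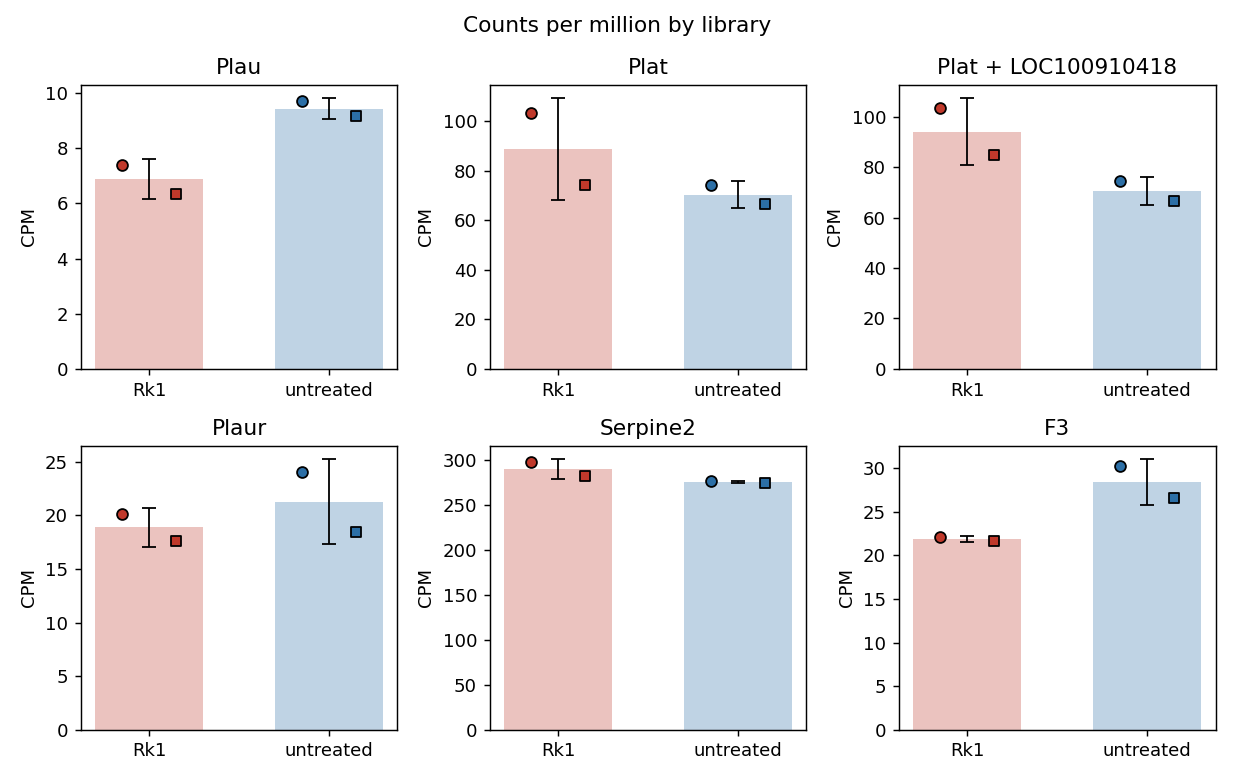
CPM of each gene in Rk1 and untreated libraries, with Plat also shown summed with LOC100910418. Bars are means, error bars SD (n = 2), circles replicate 1 and squares replicate 2. Both Rk1 libraries lie below the untreated ones for Plau and F3, and summing moves Rk1 replicate 2 to 84.9 CPM, above both untreated libraries.

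Levels of the 5 genes were compared with each other in TPM, a level per length computed with the exon lengths listed in the table. The order was the same in all 4 libraries. Serpine2 stood first at 264 and 254 TPM with Rk1 and 246 and 245 TPM untreated, above 94.6% of tested genes in untreated cells. Plat followed at 74.0 and 53.9 TPM with Rk1 and 53.3 and 47.7 TPM untreated. Plaur had 37.1 and 32.9 TPM with Rk1 and 44.4 and 34.0 TPM untreated. The receptor transcript was thus more abundant per length than that of its ligand urokinase in every library. F3 had 22.1 and 21.9 TPM with Rk1 and 30.3 and 26.6 TPM untreated. Plau stood last at 7.19 and 6.27 TPM with Rk1 and 9.44 and 8.93 TPM untreated, above only 25.3% of tested genes in untreated cells. The ranges of neighbours in this order did not overlap, within a group or over all 4 libraries.

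**Figure D2:**
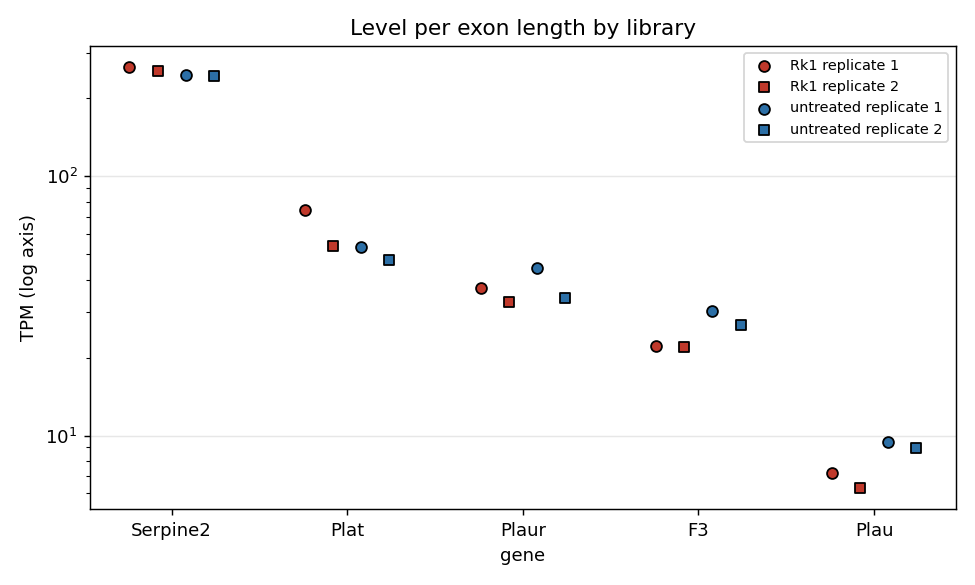
TPM on a log axis for the 5 genes, ordered by level, in Rk1 libraries (red) and untreated libraries (blue), 1 point a library. The ranges of neighbouring genes do not overlap, with Serpine2 near 250 TPM and Plau under 10 TPM in every library.

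Because Plat and Plau had fold changes of opposite sign, the balance of the activators was described as the ratio of their TPM. Plat exceeded Plau by 10.3 and 8.60 times with Rk1 and by 5.65 and 5.34 times untreated. Since the pair was chosen by its opposite signs in these same libraries, a gap between the groups was likely beforehand. It adds no support for a difference in either gene. The ratio with Rk1 rests on the Plat counts as listed, without LOC100910418. Plau relative to Serpine2 was 0.0272 and 0.0247 with Rk1 and 0.0384 and 0.0365 untreated. With 2 libraries a group these ratios were not tested.

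The profiles of Plau and F3 over the 4 libraries were the most alike among the 5 genes, with a Euclidean distance of 0.143 between centred log2(CPM + 1) values, and those of Plau and Plat the least alike at 0.750. Among 9473 genes of at least 5 CPM, the nearest to Plau were Nme2 (0.00508) and Prrx2 (0.0299), both called lower. The nearest to F3 were Irf1 (0.0476) and Arfgap1 (0.0513), also both called lower. Zcchc2 (0.0116) and Hivep3 (0.0559) were nearest to Plaur, Rbx1 (0.00333) and Prkar1a (0.00568) to Serpine2, and Pik3ip1 (0.120) and Ypel2 (0.123) to Plat, and none of these 6 was called. Likeness over 4 libraries is a description. Neighbours were picked on the same values that were tested, so whether they were called follows largely from that choice.

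Other genes of the pathway were followed in 6 lists by role, with 26 of 43 listed genes tested. Of these, 8 were higher and 0 lower with Rk1 (11.5% and 10.5% of all tested genes). The lists were chosen with earlier results of these data known, so their counts, here and by role below, are descriptions. At an unadjusted edgeR p under 0.05, 5 more listed genes fell short of the adjusted threshold. Of these, Mrc2 (adjusted p = 0.0601) and Serpini1 (0.107) had negative log2 fold changes, and Itga5 (0.0580), Lrpap1 (0.0625) and Itgav (0.0829) positive ones. Mrc2 was called lower with robust dispersions and with upper-quartile scaling. Serpini1 was called in no alternative run, and Lrpap1 was not followed by name in them. Itga5 was called higher with library totals alone and with robust dispersions, and Itgav with robust dispersions, with a replicate block and without untreated replicate 1. The median log2 fold change was 0.13 over the tested listed genes.

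Transcripts of the surface proteins that bind plasminogen were among those higher. Of 4 tested, 3 rose. S100a10, which carries plasminogen on the cell surface in complex with annexin A2, had 362 and 331 CPM with Rk1 and 251 and 247 CPM untreated (log2 fold change 0.48 ± 0.05, edgeR adjusted p = 0.00108). Its partner Anxa2 rose by 0.27 ± 0.04. Eno1, a glycolytic enzyme that also binds plasminogen at the surface, rose by 0.54 ± 0.05, and since the table lists other rows described as similar to alpha-enolase, its count is uncertain. Plgrkt, a transmembrane plasminogen receptor, did not pass (0.02 ± 0.08). Plg itself, the proenzyme made by hepatocytes, had 0 and 1 counts with Rk1 and 1 and 0 counts untreated, so no difference was detectable at this depth.

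Of 5 tested receptors that clear or take up protease complexes and matrix, 3 rose and 0 fell. Lrp8, a receptor of the LDL receptor family, had 74.4 and 67.7 CPM with Rk1 and 49.2 and 45.3 CPM untreated (0.59 ± 0.07, edgeR adjusted p = 0.00115). Vldlr, which binds complexes of urokinase with serpins, rose by 0.31 ± 0.08, and Lrp1, the main endocytic receptor for tissue-type plasminogen activator and protease complexes, rose by 0.21 ± 0.04. Vldlr was not called without untreated replicate 1 (adjusted p = 0.127) or Rk1 replicate 2 (0.0979), nor Lrp1 without untreated replicate 2 (0.111). Mrc2, a collagen uptake receptor that forms a complex with the urokinase receptor, did not pass (-0.14 ± 0.04).

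Among 8 tested partners of the urokinase receptor, 2 rose and 0 fell. Itga3, an integrin alpha chain that associates with this receptor, had 294 and 286 CPM with Rk1 and 198 and 198 CPM untreated (0.55 ± 0.04, edgeR adjusted p = 2.24e-04). Itgb1, the beta chain it pairs with, rose by 0.17 ± 0.04 and lost its call when either untreated library or Rk1 replicate 2 was left out (adjusted p = 0.0506 to 0.114). Itga5 (0.14 ± 0.04) and Itgav (0.19 ± 0.07), chains of the fibronectin and vitronectin receptors, did not pass. Vtn, which encodes vitronectin, had at most 2 counts in any library.

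Transcripts of the coagulation factors around tissue factor showed no call by edgeR, DESeq2 or limma-voom. Of 12 listed genes 4 were tested and 5 had no count in any library, namely F2, F9, F10, Tfpi2 and Thbd. F7, whose protein is the ligand of tissue factor, had 0 and 0 counts with Rk1 and 2 and 0 counts untreated. Tfpi, which encodes the inhibitor of the tissue factor complex, was at 89.0 ± 3.4 CPM with Rk1 and 86.0 ± 3.0 CPM untreated (0.05 ± 0.05, edgeR adjusted p = 0.552). F8, Procr and Pros1 had log2 fold changes of 0.12 ± 0.09, -0.12 ± 0.10 and 0.0064 ± 0.0431, and did not pass. Counts at an unadjusted p under 0.05 were 0 in this list.

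The thrombin receptors did not pass either. F2r, the main thrombin receptor, was at 117 ± 7.7 CPM with Rk1 and 109 ± 5.2 CPM untreated (0.10 ± 0.06). F2rl1, which trypsin-like proteases activate, had a log2 fold change of -0.29 ± 0.16, and F2rl2, also a thrombin receptor, one of 0.66 ± 0.28 at 1.85 ± 0.41 CPM with Rk1 and 1.17 ± 0.13 CPM untreated. Among the other inhibitors of plasmin and its activators, Serpini1 (neuroserpin) had 60 and 61 counts with Rk1 and 92 and 82 counts untreated. Its means were 3.34 CPM with Rk1 and 4.52 CPM untreated, and it did not pass (-0.43 ± 0.17, edgeR adjusted p = 0.107). Serpinb2 was at 24 and 11 counts with Rk1 and 12 and 20 counts untreated, with overlapping groups.

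**Figure D3:**
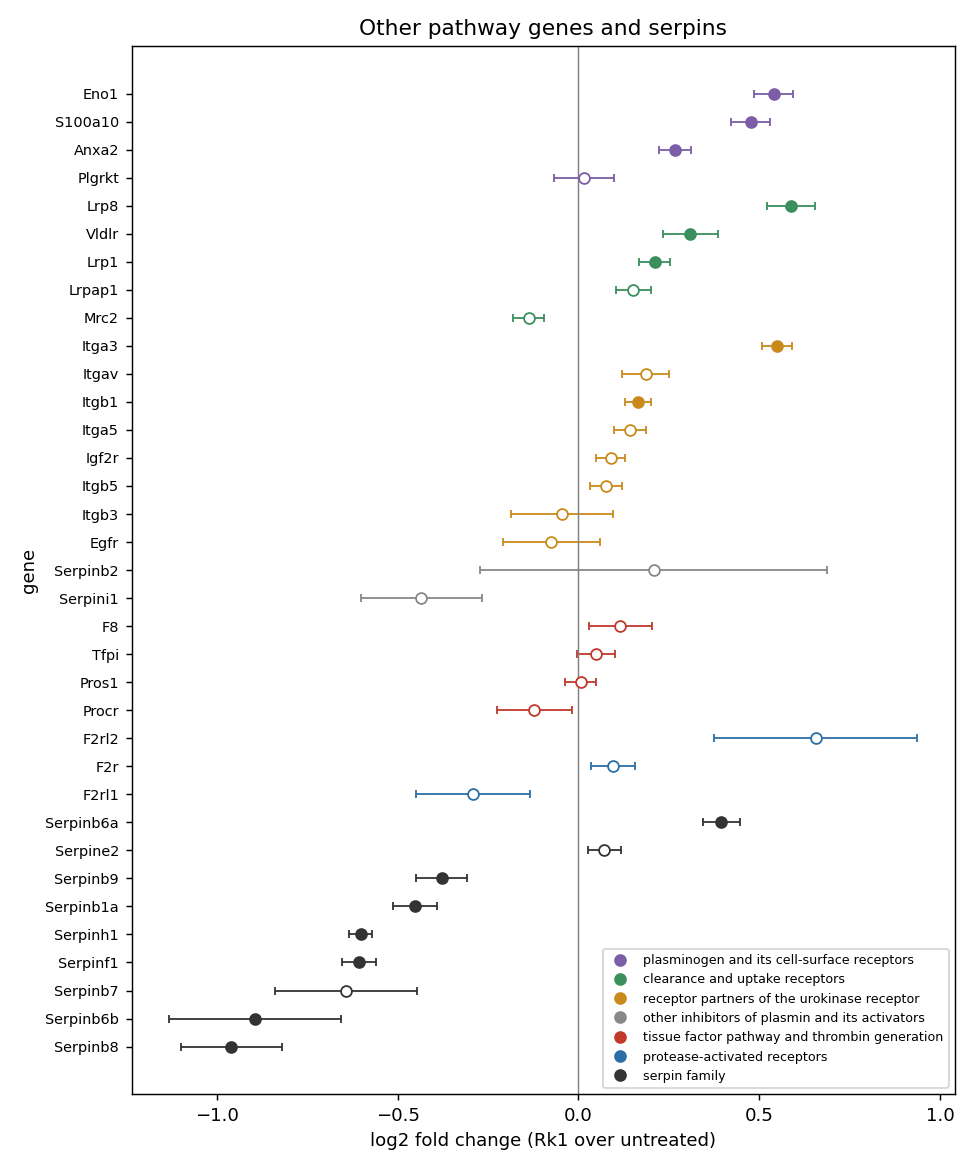
Log2 fold changes (Rk1 over untreated) with SE for 35 tested genes, coloured by role, filled where the adjusted p is under 0.05. The filled plasminogen receptors, clearance receptors and integrins lie above 0, and the filled serpins, apart from Serpinb6a, lie below 0.

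Serpine2 was also set beside the serpin family, the protein fold shared by most of the inhibitors named here. Of 39 serpin genes reported, 18 had no count and 11 were tested, including Serpine2. Among the other 10, 6 were lower and 1 higher, against 10.5% lower and 11.5% higher of all tested genes. The median log2 fold change was -0.45 over all 11, against 0.0011 over all tested genes, and the serpin list was not tested as a set. Serpinh1, a collagen chaperone that has lost inhibitory function, had 1702 and 1724 CPM with Rk1 and 2594 and 2605 CPM untreated (-0.60 ± 0.03, edgeR adjusted p = 5.96e-05). Serpinf1, which encodes the antiangiogenic protein PEDF, had 139 and 145 CPM with Rk1 and 222 and 212 CPM untreated (-0.61 ± 0.05). Serpinb1a, an intracellular inhibitor of neutrophil proteases, fell by 0.45 ± 0.06. Serpinb6a, an intracellular inhibitor, was the one that rose, by 0.39 ± 0.05. The remaining called genes, named after their values were seen, were Serpinb8 (-0.96 ± 0.14), Serpinb9, an inhibitor of granzyme B (-0.38 ± 0.07), and Serpinb6b (-0.89 ± 0.24), the last not called by DESeq2 (adjusted p = 0.263) or when any 1 library was left out (0.0780 to 0.172). Clade B genes are closely related copies, so the counts of Serpinb6a and Serpinb6b are uncertain. For Serpine2 the adjusted p was at least 0.209 in every alternative run.

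**Figure D4:**
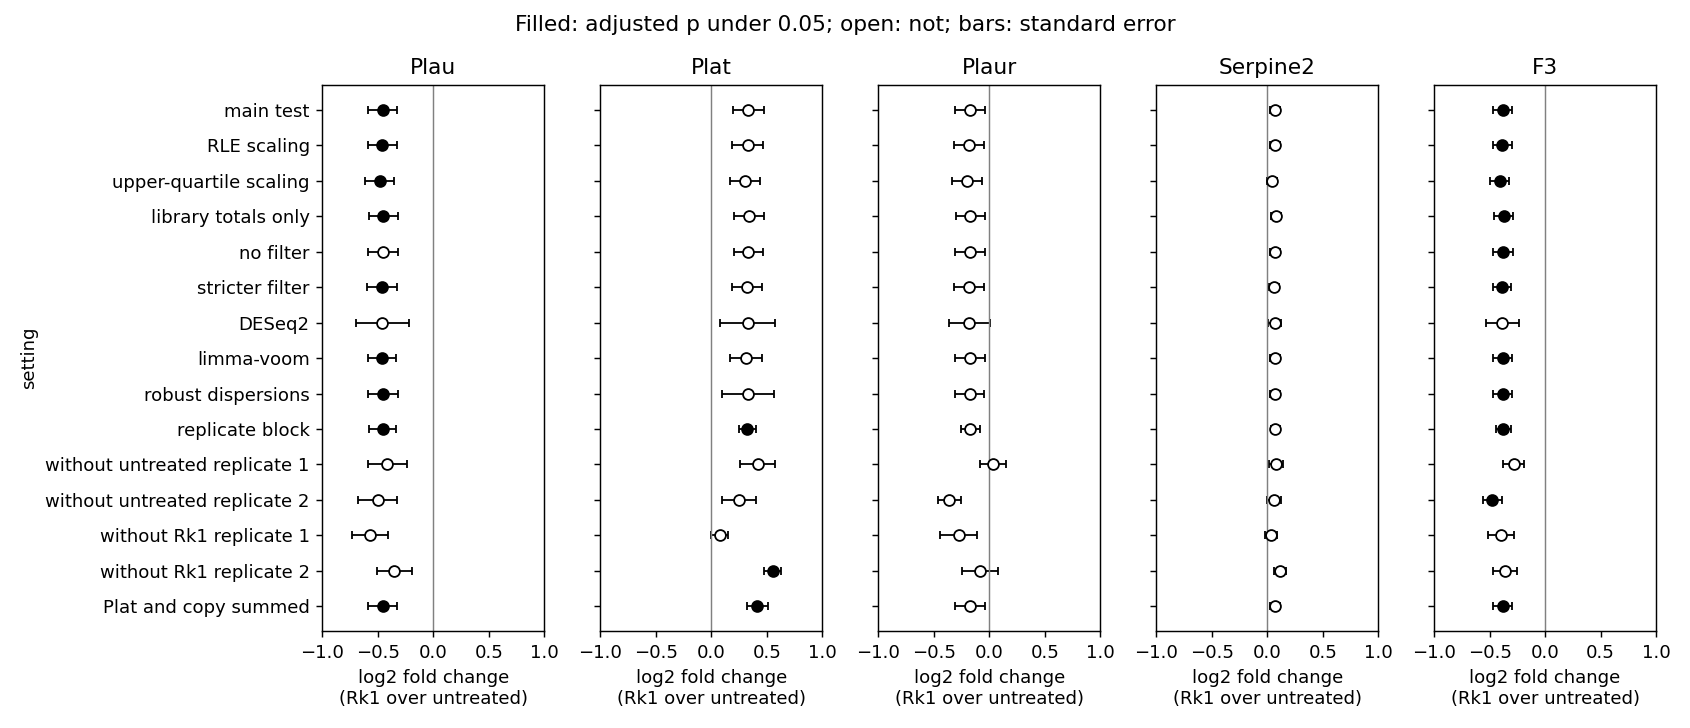
Log2 fold change (Rk1 over untreated) with SE of each gene under the main test and each alternative, filled where the adjusted p is under 0.05. Plau and F3 stay below 0 throughout but open points appear when libraries are left out, Plat ranges from 0.07 to 0.55, and Serpine2 stays near 0.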

How the data were processed

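A single table deposited by the authors holds unnormalised counts of the 4 libraries for each Ensembl gene, beside symbols, descriptions, exon lengths and Rnor_6.0 positions per the file headers. The tools HISAT2 and HTSeq are named, per the submitters' processing notes. Neither their versions nor the strand setting nor how multiply matching reads were treated is given in the sources used here. No annotated gene overlaps any of the 5 genes in the table. The libraries of a group were not 1 library deposited again, with a chi-square over degrees of freedom of 4.49 (Rk1) and 4.39 (untreated).

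Genes were filtered with filterByExpr (minimum count 10, minimum total 15), scaled by TMM and tested with edgeR 4.0.16 in R 4.3.3 with its two-sided quasi-likelihood F-test. The model held group alone, leaving 2 residual degrees of freedom. P-values were adjusted by Benjamini-Hochberg over 12316 genes. SE is the log2 fold change divided by the square root of F. CPM use TMM-scaled totals, and TPM use all rows. The procedure was tested on simulated data. Alternatives included DESeq2 1.42.0, limma-voom (limma 3.58.1), other scalings and filters, a replicate block and each library left out, where a group's lone library is taken to vary as the other group does. Named were the 5 genes, from each list the tested genes of lowest adjusted p (at most 4), and the 2 nearest profiles. Genes and lists were chosen with earlier results of these data known. In all, 1 listed gene is not reported here and is left out of the list counts.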

Additional observations from a re-analysis of the deposited data

Results flagged for a closer look

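LOC100910418, a row that entered no test, had 196 counts in Rk1 replicate 2 and 3 counts in Rk1 replicate 1, against 4 and 4 counts in the untreated libraries. It was picked out as signal above the untreated level in a row outside the comparison. Of 32883 rows, 8 had at least 100 counts in 1 library and under 10 in each of the others, 3 in Rk1 replicate 1, 2 in Rk1 replicate 2, 3 in untreated replicate 1 and 0 in untreated replicate 2. The table alone does not show how reads were divided between this row and Plat, and that was not tested.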

How the results depend on the processing

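Of 2711 genes called, DESeq2 gave 1712 (859 higher, 853 lower), an adjusted p under 0.01 gave 1226 (665 higher, 561 lower), and leaving out 1 library gave 1710 to 2046, with 824 to 1110 higher and 859 to 936 lower. The 2 of the 5 genes called lower became 1 without a filter and 0 by DESeq2 or at 0.01, and 0 to 1 when 1 library was left out. The number called higher became 1 with a replicate block and with Plat and LOC100910418 summed, and varied with the library left out. Plau was no longer called without a filter (-0.46), by DESeq2 (-0.46) or at 0.01 (-0.46), with -0.57 to -0.35 over the libraries left out. F3 was no longer called by DESeq2 (-0.38) or at 0.01 (-0.38), with -0.48 to -0.28 over the libraries left out. Plat became called with a replicate block (0.33) and when summed (0.41), and ranged over 0.0745 to 0.55 when 1 library was left out. Plaur ranged over -0.36 to 0.0332 and Serpine2 over 0.03 to 0.11. In the 6 lists, 8 genes were higher in the main test and 5 at 0.01. With robust dispersions 11 were higher, and 10 with library totals alone or with a replicate block. In these lists 1 gene was lower with upper-quartile scaling and 1 with robust dispersions. The cause of these changes was not tested. Of 420 values of the 28 other named genes, 6 changed sign, all far from the threshold: Plgrkt (-0.0116) and Pros1 (-0.0211) with upper-quartile scaling, Pros1 with the stricter filter (-0.00094) and without untreated replicate 1 (-0.0046, with up to 0.0118 over the libraries left out), and Serpinb2 without untreated replicate 1 (-0.18) and Rk1 replicate 1 (-0.47, with up to 0.70 over the libraries left out). The labels do not say whether same-numbered libraries were handled together. Their deviations correlated at 0.0926 across genes, which cannot decide this. The replicate block called 1 of the 5 genes higher and 2 lower. Precision is limited by 2 libraries a group and, for Plau, by 116 to 197 counts.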
